A study of Mus musculus with 12 samples.

Results

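The 10 genes described here carry peptides to the cell surface on MHC class I molecules. They were taken by name: H2-K1, H2-D1 and B2m, Tap1, Tap2 and Tapbp, Psmb8, Psmb9 and Psmb10, and Nlrc5. All 10 were found in both deposited count tables, among 16386 genes in the table of PSC4 cells and 15309 in that of KPC4 cells.

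A class I molecule is a heavy chain, encoded by H2-K1 or H2-D1, bound to the light chain B2m and to a short peptide. The peptides are cut from cell proteins by the proteasome, pumped into the endoplasmic reticulum by the transporter made of Tap1 and Tap2, and loaded with the help of tapasin (Tapbp). Interferons raise most of these genes in many cell types. Among them are Psmb8, Psmb9 and Psmb10, the catalytic subunits that replace the standard Psmb5, Psmb6 and Psmb7 in the immunoproteasome, and Nlrc5, a transactivator of class I genes that is recruited to their promoters by factors bound there. In pancreatic cancer, low class I on tumour cells is known as a way to avoid killing by T cells.

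Total RNA of 2 mouse lines in culture was sequenced, with 3 biological replicates in each of 4 groups. PSC4 derives from pancreatic stellate cells, the cells that give rise to many fibroblasts of the pancreas, and KPC4 from pancreatic adenocarcinoma. The genotype and strain of the lines are not given in the sources used here. PSC4 cells of the Control-SU group spent 24 h in supernatant of KPC4 cells that had received vehicle for 6 h, and those of the Gem-SU group in supernatant of KPC4 cells given 10 µM gemcitabine, which is a chemotherapy drug of the nucleoside analogue class. These donors were washed after the drug and conditioned starvation medium for 14 h. For the KPC4 groups, PSC4 cells first spent 6 h in either supernatant, were washed, and conditioned fresh starvation medium for 18 h. KPC4 cells then spent 24 h in that medium, called Control-PSC-SU or Gem-PSC-SU. Recipient cells of all groups were thus in conditioned medium, and no group in plain medium is part of the comparisons.

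Libraries held between 29559414 and 38138356 counts in PSC4 and between 26354328 and 34744150 in KPC4. No 2 libraries of one group were alike within counting noise: over the 12 pairs, the smallest chi-square was 30.4 per degree of freedom. The labelled cell types were checked against marker lists. Of 12 stellate and fibroblast markers, 11 were in the PSC4 table, and all 11 averaged over 1 CPM (the count scaled to the size of its library) with Control-SU. Only Col1a1 and Vim did so in KPC4, where Vim made up nearly all of the sum. All 10 epithelial markers averaged over 1 CPM in KPC4, with a summed level of 6085 to 7537 CPM, against 35.0 to 66.1 CPM in PSC4. Markers of professional antigen-presenting and other blood cells summed to at most 6.03 CPM in any library, endothelial markers to at most 4.84 CPM, and Ptprc was not in the PSC4 table. KPC4 Gem-PSC-SU replicate 1 stood with the control libraries for several of the genes below. For H2-K1, H2-D1, the number of genes called and the interaction, results are given without that library too.

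With control media the class I genes were far from evenly expressed in the 2 lines. All 8 genes that passed the filter on low counts within each line were higher in PSC4 than in KPC4 by edgeR's quasi-likelihood test at an adjusted p under 0.05, in a comparison in which 42.9% of 13632 genes were called and 22.3% were called higher in PSC4. Psmb8 and Psmb9 passed the filter only through PSC4, where they are high, so their difference is given as a description, with no test. Nlrc5 and Tap1 differed most of the 8, and the 2 heavy chains least. Medium and deposited table differ between the lines too, so line and medium cannot be told apart.

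The peptide-cutting subunits showed the widest gap. Psmb8 (ENSMUSG00000024338) had counts of 1984, 1309 and 1602 in the PSC4 control libraries and 8, 3 and 0 in those of KPC4, a fitted log2 difference of 8.77. Psmb9 (ENSMUSG00000096727) had 452, 322 and 407 counts against 2, 3 and 2, which made it at least 132-fold higher in PSC4 when KPC4 is set to the floor of 3 counts per library. Psmb10 (ENSMUSG00000031897), the third subunit, did not follow them in size. It averaged 82.6 CPM ± 12.4 in PSC4 and 33.3 CPM ± 4.13 in KPC4 (SD, n = 3 each), a log2 difference of 1.31 (SE 0.26; edgeR, adjusted p = 0.00108).

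Nlrc5 (ENSMUSG00000074151) averaged 77.1 CPM ± 10.1 in PSC4 and 0.737 CPM ± 0.524 in KPC4 control libraries (SD, n = 3 each), a log2 difference of 6.72 (SE 0.49; edgeR, adjusted p = 1.00e-07). The transporter genes came next, Tap1 (ENSMUSG00000037321) with a log2 difference of 5.48 and Tap2 (ENSMUSG00000024339) with 3.89. Tapbp (ENSMUSG00000024308) differed by 1.66 and B2m (ENSMUSG00000060802) by 1.56 on the log2 scale.

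For the heavy chains the gap was small. H2-K1 (ENSMUSG00000061232) differed by 0.92 on the log2 scale (SE 0.26; edgeR, adjusted p = 0.0119), and lost the call without PSC4 Control-SU replicate 1 (0.72, adjusted p = 0.0594) or KPC4 Control-PSC-SU replicate 1 (0.77, adjusted p = 0.0695). H2-D1 (ENSMUSG00000073411) differed by 0.76 (SE 0.27; edgeR, adjusted p = 0.0369), and its call was lost in 5 of 6 fits that left out 1 control library, all but the one without PSC4 Control-SU replicate 2, with adjusted p-values of up to 0.208. Control libraries of the lines did not overlap for 7 of these 8 genes, H2-D1 being the exception, against 29.1% of all genes tested lying wholly higher in PSC4. The median log2 difference of the 8 genes was 1.61, beside 0.04 over all genes tested.

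Levels of different genes were set side by side as CPM per kilobase of exon. On that scale B2m led in both lines, with 1360 ± 347 in PSC4 and 457 ± 64.9 in KPC4 control libraries (SD, n = 3 each). In PSC4 it was followed by Tapbp with 215 CPM per kilobase, H2-D1 with 199 and H2-K1 with 126, whose neighbours in this order overlapped in range. Psmb10 with 47.9, Tap1 with 25.9 and Psmb8 with 14.9 CPM per kilobase came below without overlap between neighbours. Tap2 with 10.6 overlapped Psmb8 above it and Nlrc5, with 8.97, below it. Psmb9 was lowest with 3.32 CPM per kilobase. In KPC4 control libraries H2-D1 was second with 117 CPM per kilobase, and Tapbp with 67.5 and H2-K1 with 66.4 overlapped. Psmb10 stood at 19.2, and all others were under 1 CPM per kilobase, from Tap2 with 0.712 and Tap1 with 0.579 down to Nlrc5, Psmb8 and Psmb9, which overlapped. At control level KPC4 thus held transcripts of heavy chains, light chain and tapasin, with little of the transporter, Psmb8, Psmb9 and Nlrc5.

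**Figure D1:**
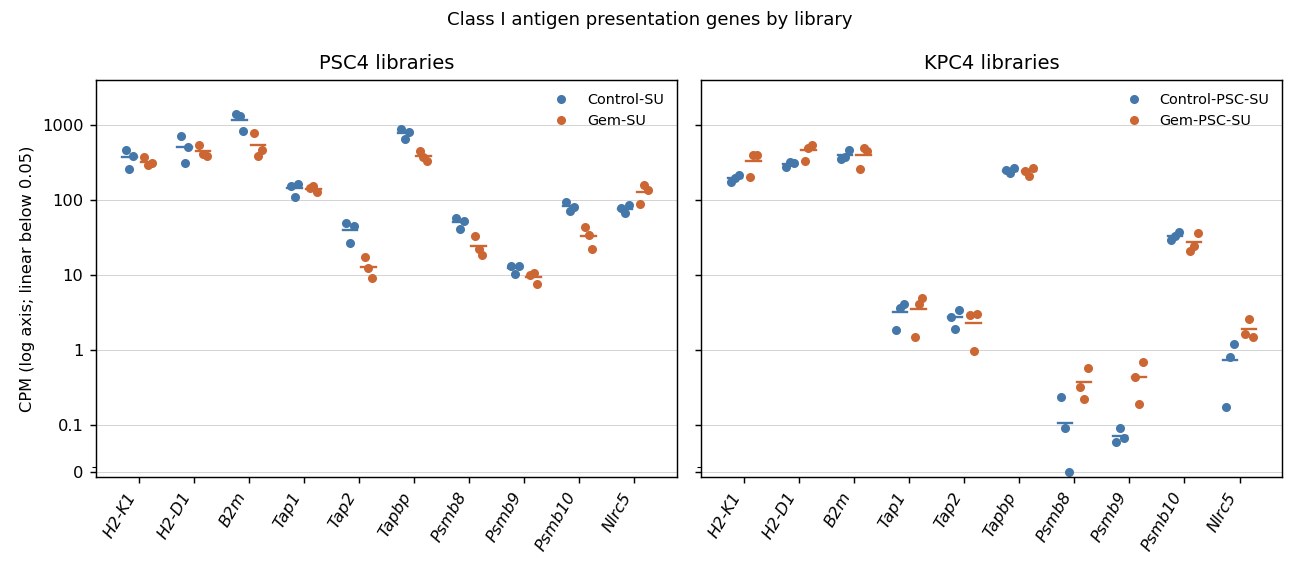
CPM of each gene in each library (points) with the mean of 3 libraries (bars), for PSC4 on the left and KPC4 on the right; the vertical axis is logarithmic above 0.05 CPM and linear below it. Psmb10, B2m, Tap2, Tapbp and Psmb8 of PSC4 lay lower with Gem-SU in all libraries, while in KPC4 Psmb8 and Psmb9 stayed under 1 CPM in both groups.

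The first drug comparison set PSC4 cells in Gem-SU against PSC4 cells in Control-SU. The light chain, tapasin, one transporter subunit and a pair of immunoproteasome subunits fell with Gem-SU, between 2.02-fold and 3.12-fold, and the transactivator Nlrc5 rose 1.66-fold. Both heavy chains, Tap1 and Psmb9 did not pass the test. Of the 10 genes, 5 were called lower and 1 higher, in a comparison in which 46.3% of 13347 genes tested were called, 22% lower and 24.3% higher. The groups did not overlap for the same 5 genes below and for Nlrc5 above, beside 27.1% and 29.3% of all genes tested. The median log2 fold change of the 10 genes was -0.69, beside -0.0032 over all genes.

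B2m, without which heavy chains do not reach the surface stably, stood at 1381, 1299 and 829 CPM in the Control-SU libraries and at 781, 380 and 464 CPM with Gem-SU. The groups came close, replicate 3 of the controls lying just above replicate 1 of Gem-SU. The log2 fold change was -1.11 (SE 0.31; edgeR, adjusted p = 0.0179), a 2.16-fold lower level. The call rested on single libraries: without Gem-SU replicate 2 it was -0.91 with an adjusted p of 0.0758, and without Gem-SU replicate 3 it was -1.01 with an adjusted p of 0.0591.

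The heavy chains themselves did not follow the light chain. H2-K1 stood at 466, 259 and 385 CPM with Control-SU and at 369, 294 and 306 CPM with Gem-SU, and H2-D1 at 716, 314 and 510 CPM against 537, 410 and 379 CPM. For both genes the Gem-SU libraries lay within the range of the controls, of which replicate 2 was lowest. The log2 fold changes were -0.20 for H2-K1 (SE 0.23; edgeR, adjusted p = 0.5003) and -0.22 for H2-D1 (SE 0.29; edgeR, adjusted p = 0.568). Heavy chain genes are near-identical and differ between mouse strains, and since the counting rule is not stated, reads may have been split among them. The sum of H2-K1, H2-D1, H2-Q4, H2-Q6, H2-Q7 and H2-Q10, which is less open to such splitting, had a mean of 955 CPM ± 335 in the Control-SU libraries and of 892 CPM ± 135 in those of Gem-SU (SD, n = 3 each), with a log2 fold change of -0.10 (SE 0.27; edgeR, adjusted p = 0.786).

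Of the transporter, one subunit fell. Tap2 stood at 49.1, 26.6 and 44.6 CPM with Control-SU and at 17.04, 12.4 and 9.01 CPM with Gem-SU. Every Gem-SU library lay below every control, and the log2 fold change of -1.64 was the most negative of the 10 (SE 0.30; edgeR, adjusted p = 0.00268). Tap1, its partner in the pump, stood at 155, 108 and 163 CPM against 141, 155 and 126 CPM, with a log2 fold change of -0.01 (SE 0.18; edgeR, adjusted p = 0.958). Tapbp, which holds the heavy chain at the pump, went from 778 CPM ± 122 to 386 CPM ± 62.8 (SD, n = 3 each). Its highest Gem-SU library reached 454 CPM and its lowest control 650 CPM, and the log2 fold change was -1.01 (SE 0.19; edgeR, adjusted p = 0.00346).

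The 3 inducible proteasome subunits were not alike either. Psmb10 stood at 94.6, 71.3 and 79.0 CPM with Control-SU and at 43.0, 33.5 and 22.01 CPM with Gem-SU, a log2 fold change of -1.31 (SE 0.24; edgeR, adjusted p = 0.00288). Psmb8 stood at 57.5, 41.3 and 52.0 CPM against 32.6, 22.05 and 18.4 CPM, a log2 fold change of -1.05 (SE 0.24; edgeR, adjusted p = 0.00721). In both genes the groups were apart. Psmb9 stood at 13.1, 10.2 and 13.2 CPM against 9.98, 10.6 and 7.48 CPM, and overlapped (log2 fold change -0.38, SE 0.22; edgeR, adjusted p = 0.188).

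Each inducible subunit was then set against the standard subunit whose place it takes, as a log2 ratio of counts within a library, which does not depend on library scaling. The ratio of Psmb10 to Psmb7 averaged -0.58 ± 0.15 with Control-SU and -2.30 ± 0.27 with Gem-SU (SD, n = 3 each), lower by 1.72 with groups apart (two-sided exact permutation test, p = 0.1, the smallest that 3 libraries against 3 can give). Psmb7, the denominator, had a log2 fold change of 0.36 of its own (edgeR, adjusted p = 0.120). For Psmb8 to Psmb5 the difference was -0.39 and for Psmb9 to Psmb6 -0.18, and both overlapped (two-sided exact permutation test, p = 0.2 each). Psmb5 had a log2 fold change of -0.67 (edgeR, adjusted p = 0.125). The mean of the 3 ratios went from -1.39 ± 0.07 to -2.15 ± 0.01 (SD, n = 3 each; two-sided exact permutation test, p = 0.1). With the 2 ratios that could be formed in KPC4, given below, 6 ratios were tested, and the smallest adjusted p was 0.15.

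**Figure D2:**
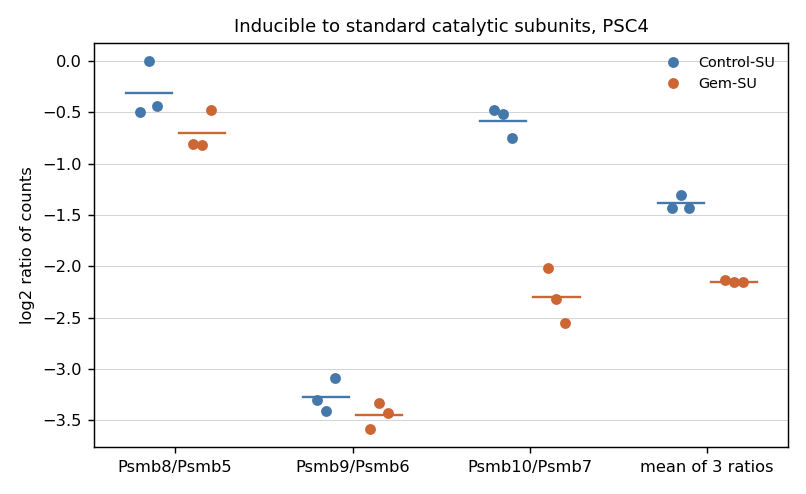
Log2 ratio of the count of each inducible proteasome subunit to that of its standard counterpart in the 6 PSC4 libraries (points), with group means (bars). The Psmb10 to Psmb7 ratio lay at -0.75 or above with Control-SU and at -2.02 or below with Gem-SU, while the groups overlapped for the Psmb8 and Psmb9 ratios.

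Nlrc5 moved the other way from the genes named above. It stood at 76.9, 66.4 and 85.3 CPM with Control-SU and at 87.1, 156 and 137 CPM with Gem-SU. Its lowest Gem-SU library was just above the highest control, and the log2 fold change was 0.73 (SE 0.22; edgeR, adjusted p = 0.0246). This call rested on single libraries. It was lost in 5 of 6 fits that left out 1 library, all but the one without Gem-SU replicate 1, with adjusted p-values from 0.0563 to 0.106. It was lost as well in one fit of all 12 libraries (0.68, adjusted p = 0.147). In the authors' deposited table Nlrc5 had a log2 fold change of 0.73 and an adjusted p of 0.0713, and the 5 genes called lower here had adjusted p-values from 4.03e-05 to 0.00490.

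Of the 11 stellate and fibroblast markers, 8 were called lower with Gem-SU as well and none higher, beside 22% lower and 24.3% higher of all genes. Acta2, Des and Fap had log2 fold changes of 0.78, 0.25 and -0.38 and were not called. The sum of the 11, most of it Col1a1, Vim and Pdgfra, was 7572 to 7651 CPM in the Control-SU libraries and 2478 to 3498 CPM with Gem-SU, and Pdgfra, a receptor of fibroblasts, went from 1257 to 127 CPM on average. Fewer cells of a type and less RNA per cell cannot be told apart in bulk RNA. The sum of epithelial markers went from 35.0 to 40.6 CPM in controls to 58.1 to 66.1 CPM with Gem-SU, Sox9 being the highest of them. Of the 5 that could be tested, Sox9 and Krt19 rose by 1.04 and 1.38 on the log2 scale, Muc1 fell by 0.79, and Krt7 and Krt8, at 1.11 and 0.34, were not called. Krt19 averaged 2.94 CPM with Control-SU and 7.64 CPM with Gem-SU, Krt8 and Krt18 stayed under 1 CPM, and Epcam and Cdh1 were not in the PSC4 table. The part of either in the results above was not tested. Short transcripts were lower as a class in this comparison, with a median log2 fold change of -0.16 in the shortest of 3 equal classes of genes against 0.09 in the longest. B2m, with 860 bases of exon, is among the short ones. In a fit with an offset for exon length B2m was at -0.94 (edgeR, adjusted p = 0.0158), and all 6 calls among the 10 genes were kept.

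Promoter sequences show what the genes share and do not share upstream. B2m and H2-K1 are printed because the first was called lower in PSC4 and the second was not called. Both hold the same pair of elements at the same spacing, and the part of these elements in the changes was not tested. The sequences are those of RefSeq on GRCm38.p6, with B2m at chr2:122147437-122147685 on the plus strand, ending 2 bases before the start site, and H2-K1 at chr17:34000348-34000597 on the minus strand, ending at the base before it. Both are written 5′ to 3′. Capitals mark TGACG, the core of a cyclic AMP response element, and ATTGG, which is CCAAT on the other strand and is bound by NF-Y. They also mark an NF-kappaB core searched as GGG, any 2 letters and TTTCC (in B2m, on the other strand, GGAAAGTCCC), the core GGATTCCC (in H2-K1), and interferon-type elements in 2 spellings. These are GAANNGAAA (in H2-K1, on the other strand, TTTCACTTC) and the longer core of GAAA, any 2 letters and GAAA (in B2m, GAAACTGAAA), which was added after the sequences were seen.
B2m: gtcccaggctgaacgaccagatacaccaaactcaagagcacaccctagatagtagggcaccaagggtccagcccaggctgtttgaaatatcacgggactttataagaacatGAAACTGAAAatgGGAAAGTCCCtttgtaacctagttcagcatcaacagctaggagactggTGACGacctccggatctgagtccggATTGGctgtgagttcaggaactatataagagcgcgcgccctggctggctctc
H2-K1: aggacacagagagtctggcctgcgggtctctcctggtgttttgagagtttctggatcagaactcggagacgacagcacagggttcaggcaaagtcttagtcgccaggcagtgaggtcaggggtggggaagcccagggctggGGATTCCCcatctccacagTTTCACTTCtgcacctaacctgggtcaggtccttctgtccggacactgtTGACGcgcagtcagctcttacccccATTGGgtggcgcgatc
TGACG and ATTGG were 20 bases apart in B2m and in H2-K1, and H2-D1 held them 20 bases apart too. The pair with 19 to 21 bases between was present in 62 of 32851 RefSeq promoter windows (0.189%), belonging to 55 genes. These included H2-M3 and H2-Q7. The spacing searched was centred on the one found in B2m, H2-K1 and H2-D1, so the share is a description and no test. A match describes letters and not a bound site.

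Stretches of 30 bases around single matches are printed for H2-D1, which holds the same kinds of match as H2-K1, and for Tap1. A CCAAT match of Tap1 and a further one of H2-D1 are not printed. For H2-D1, Tap1, Tapbp, Psmb8 and Psmb9, all 250 bases before the start lie in annotated exons. They lie at chr17:35262980-35263009 (H2-D1, TGACG), chr17:35263005-35263034 (H2-D1, ATTGG), chr17:35262914-35262943 (H2-D1, GGATTCCC), chr17:35262933-35262962 (H2-D1, TTTCACTTC) and chr17:34187457-34187486 (Tap1, TGACG), all on the plus strand of GRCm38.p6, with the match in capitals.
H2-D1, TGACG: gccgggacactgaTGACGcgctggcaggtc
H2-D1, ATTGG: aggtctcactatcATTGGgtggcgagattc
H2-D1, GGATTCCC: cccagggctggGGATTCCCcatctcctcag
H2-D1, TTTCACTTC: catctcctcagTTTCACTTCtgcacctaac
Tap1, TGACG: gcccagagacaggTGACGacagagggtcct
Of the 10 genes, 8 had an entry among the promoter windows, and Tap2 and Nlrc5 did not. Searched on both strands in the 250 bases before the start, TGACG was found in 5 of these 8 (B2m, H2-D1, H2-K1, Psmb9 and Tap1) and in 17.8% of all windows, and CCAAT in 6 of 8 (the same 5 and Tapbp) and in 33.8%. GAANNGAAA was found in H2-D1 and H2-K1 and in 6.31% of windows, and the core of GAAA, any 2 letters and GAAA in B2m and in 2.98%. GGATTCCC was found in H2-D1 and H2-K1 and in 0.834%, the core of GGG, any 2 letters and TTTCC in B2m and in 1.41%, and the STAT-type core TTCNNNGAA in Psmb8 and in 7.02%. Windows of Psmb9 and Tap1 overlap, since their start sites lie head to head with 225 bases between, so that their matches are partly the same letters. Psmb9, Tap1, Psmb8 and Tap2 follow one another on chromosome 17. Among these 4 neighbours, Psmb8 and Tap2 fell in PSC4 and Psmb9 and Tap1 were not called. Whether reads were counted by strand is not stated, so overlapping neighbours may share reads.

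The rest of the class I pathway in PSC4 was read from lists of related genes. Of 11 other class I heavy chains and class I-like genes tested, 6 fell and 1 rose, beside 22% and 24.3% of all genes, with a median log2 fold change of -1.08 beside -0.0032 over all genes. Mr1, which presents vitamin B metabolites, fell from a mean of 39.2 CPM ± 9.27 to one of 7.35 CPM ± 2.05 (SD over 3 libraries each; log2 fold change -2.41; edgeR, adjusted p = 0.000309). H2-T23, the mouse Qa-1 chain that is read by inhibitory receptors of natural killer cells, fell from 185 CPM ± 24.6 to 53.7 CPM ± 17.3 (log2 fold change -1.78; edgeR, adjusted p = 0.000606). H2-T22 fell by 1.14 on the log2 scale, and H2-M3, Cd1d1 and H2-T24 by 1.08, 2.10 and 1.21. H2-Q4 rose from 66.5 CPM ± 29.4 to 122 CPM ± 14.7 (log2 fold change 0.87; edgeR, adjusted p = 0.0423). H2-M3, which fell, and H2-Q7, which had a log2 fold change of 0.10 (edgeR, adjusted p = 0.816), share the TGACG and ATTGG pair with B2m and the heavy chains.

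Of 11 peptide trimming and loading genes tested, 1 rose and 2 fell, a smaller share than the 46.3% of all genes called. Hspa5, a chaperone of the endoplasmic reticulum, rose by 0.84 on the log2 scale (edgeR, adjusted p = 0.00910). Erap1, which trims peptides there, fell by 0.53 (edgeR, adjusted p = 0.0228), and Tapbpl, the tapasin-related peptide editor, by 0.64 (edgeR, adjusted p = 0.0275). The chaperones Calr and Canx and the oxidoreductase Pdia3, all partners of tapasin in the loading complex, had log2 fold changes of 0.27, 0.19 and -0.29 and were not called.

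Of 19 genes of the standard proteasome core and its regulators, 2 rose and 4 fell, a smaller share than the 46.3% of all genes called, with a median log2 fold change of -0.15 beside -0.0032 over all genes. The regulator subunits Psme1 and Psme2, which form the interferon-inducible cap, fell by 1.09 (edgeR, adjusted p = 0.00382) and 0.92 (edgeR, adjusted p = 0.00734). Psme3, which forms a separate nuclear cap, rose by 0.84 (edgeR, adjusted p = 0.000965). Of the core, Psma5 and Psmb1 fell by 0.71 and 0.52, and Psma1 rose by 0.59. The standard catalytic subunits Psmb5, Psmb6 and Psmb7 were not called.

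Among 21 interferon receptor, signalling and promoter-factor genes, 4 rose and 4 fell, again a smaller share than the 46.3% of all genes called. Nfya and Nfyb, subunits of the CCAAT-binding factor NF-Y, rose by 1.01 (edgeR, adjusted p = 0.000479) and 1.22 (edgeR, adjusted p = 0.000593) on the log2 scale, and Irf2, a regulator at interferon response elements, by 1.19 and the kinase Jak1 by 0.52. Socs3, an inhibitor of cytokine signalling, fell by 1.59 (edgeR, adjusted p = 0.000632), the interferon receptor chain Ifnar2 by 0.83, and the kinases Jak2 and Tyk2 by 0.67 and 0.46. Irf1, a direct activator of class I genes, had a log2 fold change of 0.34 (edgeR, adjusted p = 0.117) and was not called. Rfx5, Rfxap and Rfxank, the factors that recruit Nlrc5, were not called either.

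The interferon transcripts themselves were higher. Ifnb1 had counts of 19, 2 and 12 with Control-SU and of 301, 461 and 278 with Gem-SU, a fitted log2 fold change of 4.93. Ifna4 had 4, 0 and 0 counts against 56, 74 and 72, a fitted log2 fold change of 5.52. These were the 2 of 7 interferon genes that passed the filter on low counts. Both passed it only with the Gem-SU libraries, where they are high, so their values are given as a description, with no test. Both are short transcripts of low level, with at most 13.8 CPM. Of the MHC class II genes, 3 were tested and 0 called by edgeR, with an unadjusted p under 0.05 for 0 and calls by DESeq2 for 0, and H2-DMb1 was highest with 5.31 CPM ± 1.40 (SD, n = 3) with Control-SU. Of 9 autophagy genes that bear on class I turnover, 2 rose and 3 fell, near the share of all genes called (24.3% higher and 22% lower). Ulk1 and Sqstm1 rose by 1.24 and 0.73, and Gabarap, Map1lc3b and Nbr1, the receptor through which class I is carried to the lysosome, fell by 1.22, 0.87 and 0.49.

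**Figure D3:**
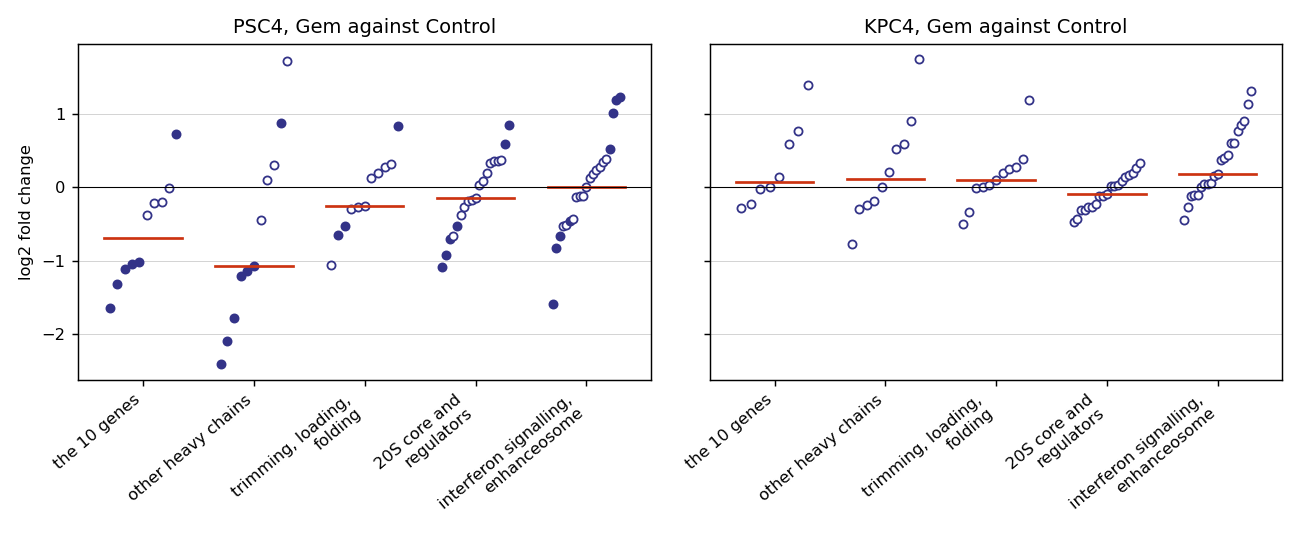
Log2 fold change of each gene tested (points, filled where the adjusted p was under 0.05 in edgeR) for the 10 genes and 4 lists of related genes, in PSC4 on the left and KPC4 on the right; red bars are medians. In PSC4 the medians of the 10 genes and of the other heavy chains lay at -0.69 and -1.08. In KPC4, fitted with no replicate block, no point is filled.

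The second drug comparison set KPC4 cells in Gem-PSC-SU against KPC4 cells in Control-PSC-SU. The light chain and tapasin had log2 fold changes of 0.01 and -0.02, and the 2 heavy chains were 1.51-fold to 1.69-fold higher without passing the test. Of the 10 genes, 8 passed the filter on low counts, and 0 were called by edgeR's quasi-likelihood test, in a comparison in which 0% of 13236 genes were called. An unadjusted p under 0.05 was reached by 2 of the 8, H2-K1 and H2-D1, and by 17% of all genes. DESeq2 called 0 of the 10 and 5.95% of 13811 genes. Same-numbered KPC4 libraries deviated together, which the fits above leave out of account. With the number as a block 2 of the 8 rose and 0 fell, beside 8.85% of all genes called, 6.07% higher and 2.78% lower. The median of the 8 was 0.07, beside -0.02 over all genes.

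H2-K1 stood at 171, 197 and 217 CPM with Control-PSC-SU and at 201, 396 and 394 CPM with Gem-PSC-SU. Replicate 1 of Gem-PSC-SU lay among the controls and the other two above them. The log2 fold change was 0.76 (SE 0.26; edgeR, adjusted p = 0.214), and with the replicate block it was 0.70 (edgeR, adjusted p = 0.0436). H2-D1 stood at 270, 321 and 314 CPM against 334, 484 and 546 CPM, and all Gem-PSC-SU libraries lay above the controls. Its log2 fold change was 0.59 (SE 0.21; edgeR, adjusted p = 0.216), and with the replicate block 0.57 (edgeR, adjusted p = 0.0426). Without Gem-PSC-SU replicate 1, the lowest of its group for both genes, and with no block, both were called. H2-K1 was at 1.02 (edgeR, adjusted p = 0.0157) and H2-D1 at 0.77 (edgeR, adjusted p = 0.0325), in a fit that called 1129 of 13605 genes. Neither was called in the other 5 fits without 1 library. Adjusted p-values there (edgeR) were 0.279 to 0.550 for H2-K1 and 0.258 to 0.563 for H2-D1.

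The sum of the 6 heavy chain genes H2-K1, H2-D1, H2-Q4, H2-Q6, H2-Q7 and H2-Q10 went the same way. It had a mean of 504 CPM ± 47.5 in the control libraries and of 805 CPM ± 224 in the Gem-PSC-SU libraries (SD, n = 3 each; log2 fold change 0.67; edgeR, adjusted p = 0.204), and was called with the block (0.64; edgeR, adjusted p = 0.0375). H2-Q4 alone had counts of 166, 132 and 107 against 159, 557 and 484, with replicate 1 again near the controls (log2 fold change 1.74; edgeR, adjusted p = 0.124, with the block 0.0636, and with DESeq2 0.00236). In the authors' deposited table H2-Q4 had a log2 fold change of 1.84 with an adjusted p of 0.00292.

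B2m stood at 348, 377 and 455 CPM with Control-PSC-SU and at 254, 490 and 444 CPM with Gem-PSC-SU, with a log2 fold change of 0.01 (SE 0.25; edgeR, adjusted p = 0.989). The lowest and the highest value were both in the Gem-PSC-SU group. Tapbp stood at 247, 226 and 262 CPM against 245, 209.6 and 268 CPM, with both groups in the same range (log2 fold change -0.02, SE 0.17; edgeR, adjusted p = 0.956). Psmb10 went from 32.8 CPM ± 4.24 to 26.9 CPM ± 8.06 (SD, n = 3 each; log2 fold change -0.28, SE 0.25; edgeR, adjusted p = 0.576).

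The remaining genes had low counts, of at most 133 in any KPC4 library. Tap1 stood at 1.82, 3.62 and 4.08 CPM against 1.495, 4.12 and 4.86 CPM (log2 fold change 0.14, SE 0.50; edgeR, adjusted p = 0.909), and Tap2 at 2.77, 1.90 and 3.41 CPM against 2.92, 0.961 and 3.01 CPM (log2 fold change -0.23, SE 0.49; edgeR, adjusted p = 0.837). Nlrc5 had counts of 6, 27 and 36 against 46, 83 and 39. Its Gem-PSC-SU libraries lay above the controls, but the spread was wide (log2 fold change 1.39, SE 0.66; edgeR, adjusted p = 0.327). Nlrc5 had a smaller log2 fold change, of 0.12, in the authors' deposited DESeq2 results (adjusted p = 0.963). Psmb8 and Psmb9 did not pass the filter. Psmb8 had counts of 8, 3 and 0 against 9, 7 and 15. Psmb9 had 2, 3 and 2 against 12, 6 and 18, at least 4.68-fold higher with Gem-PSC-SU when controls are set to the floor of 3 counts per library. In the authors' deposited table the adjusted p of Psmb9 was 0.0788, and 0 of the 10 genes were under 0.05 in KPC4.

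Groups did not overlap for 2 of the 8 genes tested, H2-D1 and Nlrc5, both higher with Gem-PSC-SU, beside 11.8% of all genes. Epithelial markers summed to 6085 to 7527 CPM with Control-PSC-SU and to 6096 to 7537 CPM with Gem-PSC-SU, and none of the 10 was called, in a comparison with 0 calls over all genes. Stellate and fibroblast markers, nearly all of it Vim, summed to 2399 to 2779 CPM and to 1837 to 2183 CPM, with groups apart. Blood cell markers summed to 0.593 to 1.33 CPM and to 1.36 to 2.11 CPM. The part of these in the results was not tested. The ratio of Psmb10 to Psmb7 was lower by 0.46 in KPC4 with groups apart, -2.03 ± 0.19 against -2.49 ± 0.24 (SD, n = 3 each; two-sided exact permutation test, p = 0.1). The ratio of Psmb9 to Psmb6 was higher by 2.45 (two-sided exact permutation test, p = 0.1), on the few Psmb9 counts given above. No ratio with Psmb8 could be formed, since one library had 0 counts.

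Related genes in KPC4 gave 0 calls by edgeR in each of the 7 lists, of which 6 held a gene that could be tested. Promoter and interferon-signalling factors, the largest list, had 7 of 21 genes with an unadjusted p under 0.05 in edgeR, beside 17% of all genes. DESeq2 called 3 of the 21, beside 5.95% of all genes. With the replicate block 3 of the 21 rose, beside 6.07% of all genes. They were Rfx5 by 1.26 (edgeR, adjusted p = 0.0144), Irf2 by 0.88 (edgeR, adjusted p = 0.0136) and Stat2 by 0.78 (edgeR, adjusted p = 0.0458). Irf1 had counts of 1773, 1470 and 1573 against 1777, 4723 and 3014 and a log2 fold change of 1.13 (edgeR, adjusted p = 0.138, with the block 0.0545, and with DESeq2 0.00821). As for the heavy chains, Gem-PSC-SU replicate 1 was the lowest of its group. Hspa5 of the loading list rose with the block by 1.05 (edgeR, adjusted p = 0.0313). For the other lists the same shares of all genes, 17% and 5.95%, stand beside the counts. Unadjusted p-values under 0.05 were reached by 2 of 10 other heavy chains, 1 of 11 loading genes, 1 of 19 proteasome genes, 2 of 9 autophagy genes and 0 of 1 class II genes, and DESeq2 called 1, 1, 0, 1 and 0 of them. Of these, Cd1d1, Psma5 and Sqstm1 had log2 fold changes of -0.77, -0.47 and 1.78. Ifnb1 had 0 counts in the control libraries and 0, 1 and 17 with Gem-PSC-SU.

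**Figure D4:**
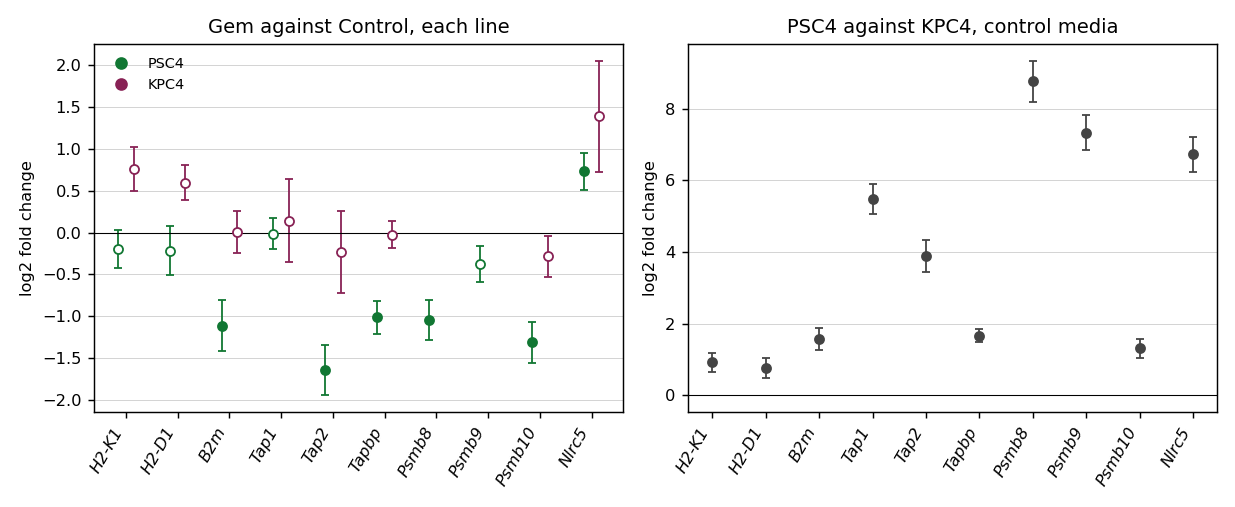
Log2 fold changes with standard errors from edgeR (3 libraries a group, no replicate block), filled where the adjusted p was under 0.05. On the left, Gem against Control in each line, with Psmb8 and Psmb9 of KPC4 not tested; on the right, PSC4 against KPC4 with control media, where all 10 genes were above 0, Psmb8 and Psmb9 having passed the filter only through PSC4.

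The responses of the 2 lines were compared by an interaction term, fitted to all 12 libraries together. PSC4 had medium of KPC4 cells given the drug, and KPC4 had medium of PSC4 cells exposed to that supernatant. Line, medium and step of transfer therefore cannot be told apart in this term. All 8 genes that passed the filter on low counts within each line had a more negative fitted response in PSC4 than in KPC4, with a median difference of -1.02 on the log2 scale beside -0.09 over all genes. The difference was called for 1 of the 8, Tapbp, beside 9.85% of 13632 genes called, 5.1% in that direction and 4.75% in the other. Tapbp differed by -1.04 (SE 0.26; edgeR, adjusted p = 0.0234), with 209.6 CPM or more in every library. Psmb8 and Psmb9 had fitted differences of -2.77 and -2.94, but reached no more than 18 counts in KPC4, did not pass the KPC4 filter, and entered the fit only through PSC4, so they are not counted.

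For the other 7 of the 8 the interaction was not called. It was -1.17 for B2m (edgeR, adjusted p = 0.0974), -1.08 for Psmb10 (0.0796), -1.01 for H2-K1 (0.104), -1.47 for Tap2 (0.122) and -0.86 for H2-D1 (0.179). Tap1 at -0.20 and Nlrc5 at -0.72 were farther from the threshold. With the replicate number as a block in both lines 6 of the 8 were called, all but Tap1 and Nlrc5, beside 21.9% of all genes called and 12% in that direction. That block covers PSC4 too, where the numbers were not taken as pairs. The calls also moved with single libraries. Leaving one out gave 4 of the 8 without KPC4 Gem-PSC-SU replicate 1, where 1348 of 13824 genes were called over all. It gave 3 without PSC4 Gem-SU replicate 1 (1722 of 13814 genes) and 2 without KPC4 Gem-PSC-SU replicate 2 (1993 of 13777 genes). It gave 0 without PSC4 Control-SU replicate 1 or 3, or PSC4 Gem-SU replicate 2 or 3. The same held without KPC4 Control-PSC-SU replicate 1 or 2 or KPC4 Gem-PSC-SU replicate 3. The fits that gave 0 called 610 to 1048 genes over all. The remaining fits gave 1, with 901 genes called over all without PSC4 Control-SU replicate 2 and 779 without KPC4 Control-PSC-SU replicate 3. In the lists of related genes, 2 of 11 other heavy chains were called with a more negative response in PSC4, beside 5.1% of all genes. They were H2-T22 at -1.40 (edgeR, adjusted p = 0.00433) and H2-T23 at -1.54 (edgeR, adjusted p = 0.0244). Of 21 signalling and promoter-factor genes, 1 was called in that direction. Of 9 autophagy genes, 1 was called in that direction and 1 in the other, beside 4.75% of all genes. Calls were 0 of 11 loading genes, 0 of 19 proteasome genes, 0 of 2 interferon genes and 0 of 1 class II genes.

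The genes whose pattern over the 12 libraries lay nearest to the mean of the 8 class I genes tested in both lines were Tapbpl, Plin2, Sec22b, Zfpl1 and Card19, among 11863 genes compared. Their mean absolute difference from that mean, in log2 CPM centred within each line, was 0.11 for Tapbpl and Plin2 and 0.12 for the other 3. Tapbpl is the tapasin-related editor named above, Plin2 coats lipid droplets, and Sec22b is a vesicle fusion protein of the endoplasmic reticulum. The 8 genes themselves lay farther from their own mean, between 0.20 for H2-D1 and 0.67 for Nlrc5.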

How the data were processed

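Per the labels, total RNA was sequenced on a NovaSeq X Plus. The authors deposited raw counts per gene and library, 1 table per line, and comparison tables with log2 fold changes, p-values and adjusted p-values, used only where named. The submitters' processing notes name FastQC, Trim Galore 0.6.10, cutadapt 5.2, Salmon, R 4.5.1, DESeq2 and GRCm39, with no roles. Whether counts follow strand, and how near-identical genes were counted, is not given in the sources used here. Identifiers were named from GENCODE M21, which matched 99.7% in each table. The smallest row total is 0 in PSC4 and 11 in KPC4. No unused columns of per-sample values were left (0).

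Counts were tested with edgeR 4.0.16 (R 4.3.3; filterByExpr, TMM, robust quasi-likelihood, Benjamini-Hochberg over all genes tested at 0.05), each line by itself, and over 12 libraries for the interaction and the control lines (14360 genes in both tables). Standard errors are the log2 fold change over the root of F. CPM uses TMM-adjusted totals. Floors of 3 counts cover counting error only. The named genes are all 10, the 3 smallest p-values of each related list per line besides called genes, and the 5 nearest patterns with a mean of at least 50 counts (prior count 2). Promoters are RefSeq's on GRCm38.p6, matched for 8 of 10 genes. The tests were tried on simulated data. Members and lists were chosen with earlier results of these data known.

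Same-numbered KPC4 libraries deviated together (correlations 0.351, 0.436 and 0.211). A KPC4 fit with the number as a block is therefore given beside the main fit, which had no block. In PSC4 the numbers were not taken as pairs (0.428, -0.0548 and 0.102). The labels call the replicates biological but do not say which libraries share a culture, so p-values measure the spread between these libraries. Alternatives were DESeq2 1.42.0, its size factors, no filter, a minimum of 10 counts in each library, the block, one fit over 12 libraries, and leaving out each library. The heavy chain sum, the length offsets and 1 promoter motif were chosen after seeing the data. The spacing searched for the promoter pair was centred on that found in B2m, H2-K1 and H2-D1.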

Additional observations from a re-analysis of the deposited data

Results flagged for a closer look

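The interaction in one edgeR fit of all 12 libraries tests the difference in response, but line and medium cannot be told apart in it. By that test the response of Tapbp to the gemcitabine media differed between the lines. It differed by -1.04 on the log2 scale, with 209.6 CPM or more in every library, and the call was lost in 7 of 12 fits without 1 library, where its adjusted p was 0.0507 to 0.0642. Those fits left out PSC4 Control-SU replicates 1 and 3, Gem-SU replicates 2 and 3, KPC4 Control-PSC-SU replicates 1 and 2, and Gem-PSC-SU replicate 3. Psmb8 and Psmb9 met the threshold in the same fit, but passed its filter on low counts only through PSC4, where they are high, and failed that of KPC4, so their values are a description. Psmb8 had a fitted difference of -2.77, with 0 to 15 counts per KPC4 library, and ranged from -3.93 to -2.25 over the fits without 1 library, the most negative without KPC4 Control-PSC-SU replicate 1 and the least without KPC4 Control-PSC-SU replicate 3. Psmb9 had a fitted difference of -2.94, with 2 to 18 counts per KPC4 library and its controls at or under the floor of 3 counts.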

How the results depend on the processing

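Without 1 library, 4061 to 6826 genes were called in PSC4, the lowest without Gem-SU replicate 2, and 4 to 6 of the 10 class I genes. In KPC4, edgeR called 0 genes, DESeq2 822, the replicate block 1171, one fit over 12 libraries 610, and the added length offsets with the block 1394. Fits without 1 library called 0 to 1129, the highest without Gem-PSC-SU replicate 1, then 174 without Control-PSC-SU replicate 2, and 1 when Gem-PSC-SU replicate 2 was left out. Of the class I genes the block called 2, one fit 1 (Psmb9, which passed the filter only through PSC4), length offsets with the block 2, and fits without 1 library 0 to 2. In the interaction DESeq2 called 2145 genes, the block in both lines 2988, and fits without 1 library 610 to 1993, the lowest without PSC4 Gem-SU replicate 2. Of the class I genes, Psmb8 and Psmb9 included, these called 5, 8 and 1 to 6, against 3, and the filter of at least 10 counts in every library, which left 7 of the 10 to test, called 1. The cause was not tested in any of these.

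Genes near 0 changed sign. In PSC4, Tap1 was 0.0026 with the block and -0.203 to 0.0647 without 1 library, where H2-K1 ranged from -0.43 to 0.0016 and H2-D1 from -0.50 to 0.10. In KPC4, B2m was -0.0368 with the block and -0.0216 with length offsets as well, and Tap1 -0.0109 with both. Without 1 library B2m ranged from -0.17 to 0.25, Tap1 from -0.17 to 0.50, Tap2 from -0.48 to 0.14 and Tapbp from -0.108 to 0.0672, and Tap1 in the interaction from -0.58 to 0.10. None of these was called in any of those fits.

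In PSC4 the numbers did not pair consistently. Replicate 1 correlated best with its own number (0.428), and replicates 2 and 3 did not (-0.0548 and 0.102). The block moved the genes called from 6177 to 7266. It changed no call among the class I genes. DESeq2's size factors, no filter, DESeq2 and the length offsets kept these 6 calls. With control media, H2-D1 lost its call without the filter (0.71, adjusted p = 0.0524). In KPC4, depth limits Psmb8 and Psmb9, whose counts reach at most 18.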
